A study of Mus musculus with 4 samples.

Results

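The genes described here are 42 mouse interferon-stimulated genes, taken from a list of symbols and found in the array's annotation. Of these, 39 had a probe set naming that gene alone, out of 19938 genes with such a probe set on the array. The 3 without one were Ifi44, Isg15 and Gbp2. Levels are deposited Affymetrix intensities on a linear scale, and differences are Ovol2 BT minus Control on the log2(intensity + 16) scale, which understates changes of dim genes. Genes in the lowest 25% by mean level over the arrays were not tested. This left 14953 genes, among them 33 members of the list, while 6 members (Mx1, Mx2, Gbp3, Ifit1, Cxcl11 and Oas1a) had measured values but no test.

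RNA of whole skin from mouse embryos at embryonic stage E17.5 was hybridised to 4 arrays, each with RNA of 2 mice. Ovol2 BT skin (2 arrays) carried TRE-Ovol2-Flag, an Ovol2 transgene that needs the tetracycline transactivator, together with K5-tTA, which makes that transactivator from a keratin 5 promoter. Keratin 5 is made by basal keratinocytes, so the transgene is driven in a single compartment of the tissue that was measured. Control skin (2 arrays) came from mice with TRE-Ovol2-Flag alone or from wild type mice. The Ovol2 protein is an epithelial transcription factor with zinc fingers, and the study asked how epidermal differentiation changes when it is overexpressed. The labels give the strain as FVB/N for Ovol2 BT and CB6F1 for Control while calling the mice littermates, and strain cannot be told apart from genotype. In whole skin, fewer cells of a type and less RNA per cell likewise cannot be told apart.

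Ovol2 had 4367 and 3893 in Ovol2 BT and 360 and 161 in Control, a log2 difference of 4.0 (SE 0.33, limma adjusted p = 0.00311). All arrays are labelled female, but the arrays numbered 1 in both groups carried RNA of Y-linked genes. Uty read 69.5 and 3.20 in Ovol2 BT replicates 1 and 2, and 55.5 and 6.69 in Control replicates 1 and 2. Kdm5d read 134 and 10.5 in Ovol2 BT and 122 and 23.6 in Control. The X-inactivation transcript Xist was lower in the arrays numbered 1, with 448 and 1875 in Ovol2 BT and 1016 and 2839 in Control. Results are therefore also given within the arrays numbered 1 and within those numbered 2. Median intensities ranged from 123 to 132 over the 4 arrays, and with so few arrays every value is imprecise.

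Interferons are secreted proteins that cells release on sensing viral or misplaced nucleic acid. Type I and type III interferons signal through JAK kinases to a complex containing STAT2 and IRF9, which binds the interferon-stimulated response element (ISRE) in promoters of target genes. Interferon gamma acts mainly through another promoter element, the gamma-activated site (GAS). The target genes encode antiviral effectors, the sensors and transcription factors that amplify the response, and chemokines that draw lymphocytes, and keratinocytes and resident immune cells of skin can make this response.

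The promoter windows below show the ISRE in members whose values are described later. A window of 300 bases (250 before to 50 after the annotated start) was taken for 31 members from RefSeq (GRCm38.p6); the members not searched were Ifi27, Mx1, Mx2, Oas2, Usp18, Cxcl11, Dhx58, Parp9, Parp14, Rtp4 and Zbp1. The motif searched was GAAANNGAAA on either strand, where N is any base, so that its other strand reads as a pair of TTTC runs. It was found in 15 of the 38 member windows (39.5%), belonging to 15 members, and in 3.44% of all 32851 promoter windows. The GAS letters TTCNNNGAA were found in 9 of the member windows (23.7%) and in 8.30% of all windows. A match is a description of letters and not a tested binding site. The stretches are printed 5′ to 3′ on the strand of the gene, all lying before the start, with the ISRE matches in capitals. Rsad2 and Cxcl10 are shown because their arrays differed within or between groups, Ifit1 and Ifit3 because they are family members with a pair of matches each, and Bst2 and Gbp3 because their matches overlap.
Rsad2: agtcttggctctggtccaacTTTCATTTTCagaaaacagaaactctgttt
Cxcl10: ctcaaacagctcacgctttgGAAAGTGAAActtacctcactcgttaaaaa
Ifit1: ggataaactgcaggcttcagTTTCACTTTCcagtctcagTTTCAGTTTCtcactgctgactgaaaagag
Ifit3: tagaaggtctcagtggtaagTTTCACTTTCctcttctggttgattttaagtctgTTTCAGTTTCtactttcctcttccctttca
Bst2: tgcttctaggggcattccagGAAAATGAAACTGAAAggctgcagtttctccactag
Gbp3: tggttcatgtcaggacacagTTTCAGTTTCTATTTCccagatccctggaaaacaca

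On GRCm38.p6 the Rsad2 stretch is chr12:26456543-26456592 (minus strand) and that of Cxcl10 is chr5:92349073-92349122 (minus strand). The Ifit1 and Ifit3 stretches are chr19:34640765-34640833 and chr19:34583353-34583436 (plus strand). The Bst2 stretch is chr8:71537567-71537622 (minus strand) and the Gbp3 stretch chr3:142559979-142560034 (plus strand). In Bst2, which also had a GAS match overlapping the first ISRE match, and in Gbp3, the 2 overlapping ISRE matches share a GAAA run. The windows of Oasl2, Xaf1 and Irf7 held no ISRE match, which says only that these letters are not in those windows.

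Ifi27 was the single member called, and it was higher in Ovol2 BT. Of the 33 tested members, 1 passed an adjusted p of 0.05 as higher (3.03%) against 0.615% of all tested genes, and 0 passed as lower against 0.348% (limma, Benjamini-Hochberg over all genes). At an unadjusted p under 0.05 the count was 1 higher (Ifi27) and 1 lower (Cxcl10), 3.03% each, against 5.11% and 5.24% of all tested genes. With 1 gene each way, these shares are near the background. Values were higher in Ovol2 BT for 25 members and lower for 8, with a median log2 difference of 0.13, beside -0.04 over all tested genes. With the untested members included, the median of the 39 was 0.17. Differences stayed within 1.5-fold for 29 of the 33.

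In 9 tested members (27.3%) both Ovol2 BT arrays lay above both Control arrays, against 20.4% of all genes. In 3 members (9.09%) both lay below, against 21.9% of all genes. The share of members lying above is near that of the background. Within the arrays numbered 1 the members' median difference was -0.07, with 13 members higher and 20 lower. Within the arrays numbered 2 it was 0.33, with 27 higher and 6 lower. The sign of the list's median therefore differed between these pairs of arrays. Over all tested genes the medians were -0.04 (6698 higher, 8255 lower) and -0.03 (6966 higher, 7986 lower). The members' median within the arrays numbered 1 was near this background.

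**Figure D1:**
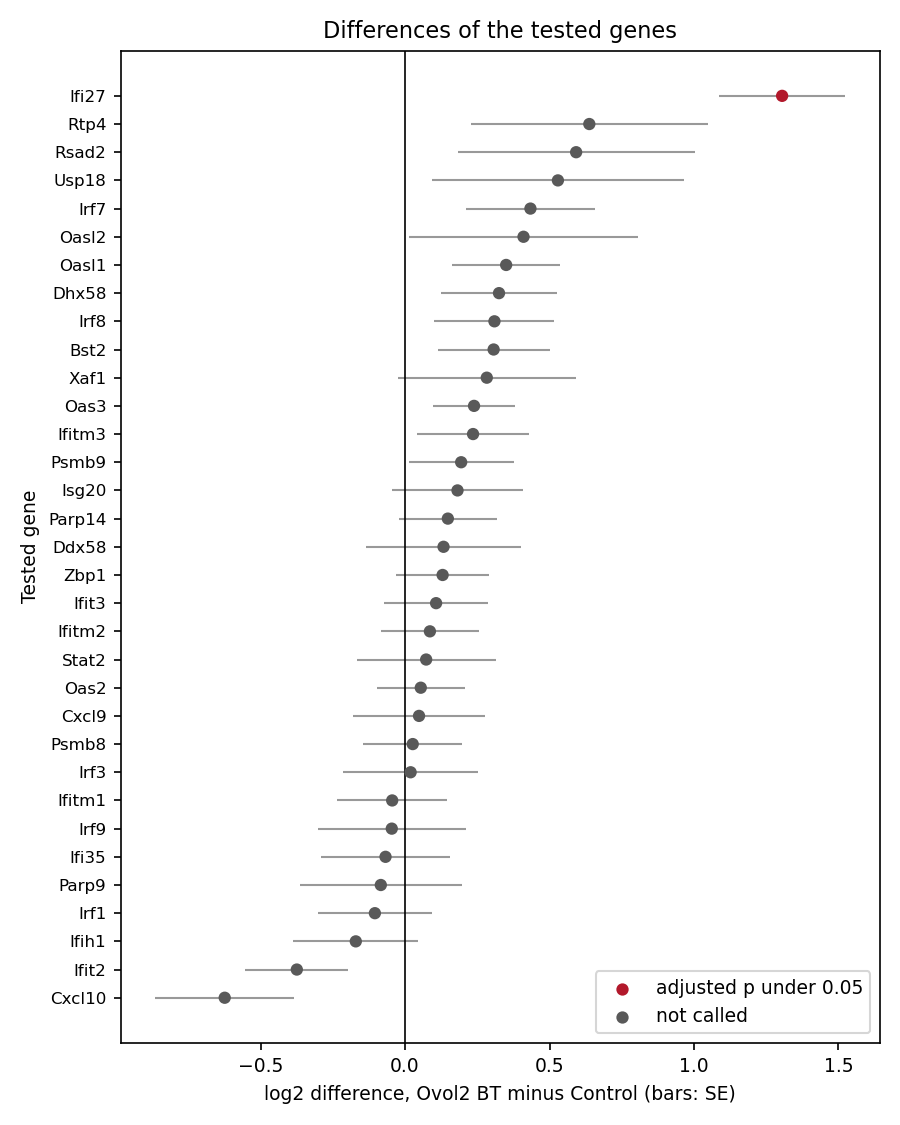
Log2 difference, Ovol2 BT minus Control, of the 33 tested members (points, in order of the difference), with bars of 1 SE from limma; red marks an adjusted p under 0.05. Ifi27 stands alone at 1.31, most members lie between -0.37 and 0.64, and Cxcl10 is lowest at -0.62.

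Ifi27 encodes a small membrane protein of mitochondria and is strongly induced by type I interferon. Its intensity was 888 and 761 in Ovol2 BT and 355 and 294 in Control, a log2 difference of 1.29 within the arrays numbered 1 and 1.32 within those numbered 2. Both Ovol2 BT arrays were above both Control arrays, by a log2 difference of 1.31 (SE 0.22, 2.47-fold, limma adjusted p = 0.0298), which placed it 108th by p among the tested genes. The call ended when Ovol2 BT replicate 1 was left out (adjusted p = 0.0517) and when Control replicate 2 was left out (adjusted p = 0.0578, both limma). Adipocyte markers moved in the same arrays, and summed to 14103 and 14812 in Ovol2 BT and 4772 and 3511 in Control. All 7 were higher, and 5 (Cidea, Ucp1, Plin1, Adipoq and Cidec) were called (71.4%, against 0.615% of all tested genes called higher). Their part in the Ifi27 value was not tested.

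The relatives of Ifi27 from the wider set of interferon-stimulated genes did not pass the test. Ifi27l2a read 110 and 86.5 in Ovol2 BT and 58.8 and 48.8 in Control (log2 difference 0.71, SE 0.16, limma adjusted p = 0.113). Ifi27l2b read 133 and 194 in Ovol2 BT and 107 and 105 in Control (0.54, SE 0.20, limma adjusted p = 0.422). In both genes the Ovol2 BT arrays lay above the Control arrays.

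**Figure D2:**
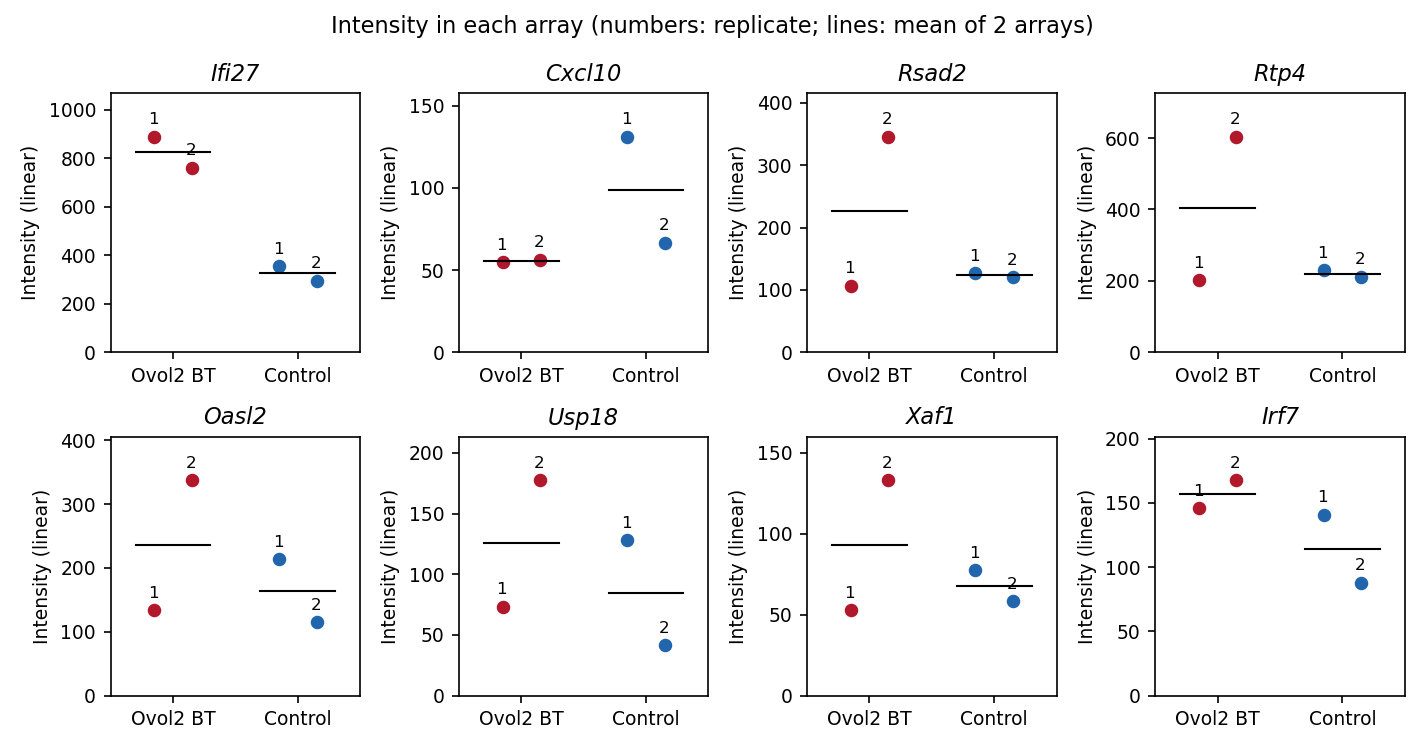
Deposited intensity (linear axis from 0) of 8 members in each array, with replicate numbers beside the points and a line at each group's mean. Ifi27 separates the groups, Cxcl10 is high in Control replicate 1 (131), and Rsad2, Rtp4, Oasl2, Usp18 and Xaf1 are highest in Ovol2 BT replicate 2.

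Among the transcription factors, none of the 6 members passed the test at an adjusted or an unadjusted p of 0.05 in limma. Values were higher for 4 and lower for 2, with a median difference of 0.05. Irf7, the factor that amplifies type I interferon production, had 146 and 168 in Ovol2 BT and 141 and 87.9 in Control (log2 difference 0.43, SE 0.22, limma adjusted p = 0.555). The groups did not overlap, but Control replicate 2 alone was low, and the difference was 0.05 between the arrays numbered 1 and 0.82 between those numbered 2. Irf8, which guides development of myeloid and dendritic cells, had 303 and 263 in Ovol2 BT and 245 and 206 in Control (0.31, SE 0.21, limma adjusted p = 0.630).

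The DNA-binding subunit Irf9 had 279 and 398 in Ovol2 BT and 407 and 291 in Control. Its partner Stat2 had 277 and 324 in Ovol2 BT and 345 and 234 in Control. In both genes the groups overlapped, and the differences were -0.05 and 0.07. Irf1, a target of interferon gamma signalling, had 163 and 153 in Ovol2 BT and 195 and 150 in Control (-0.10, SE 0.20, limma adjusted p = 0.866). A dimmer second Irf1 probe set gave a difference of the other sign, 0.23. Irf3, which is present before infection and is activated by phosphorylation, had 1063 and 779 in Ovol2 BT and 986 and 817 in Control, a difference of 0.02.

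The cytosolic nucleic acid sensors were 4 tested members, of which 0 passed at an adjusted or unadjusted p of 0.05 in limma. Dhx58 (LGP2), a regulator of the RNA sensors, had 71.7 and 113 in Ovol2 BT and 75.8 and 62.4 in Control (log2 difference 0.33, SE 0.20, limma adjusted p = 0.605). Ddx58 (RIG-I), the sensor of RNA with a terminal triphosphate, had 215 and 372 in Ovol2 BT and 269 and 244 in Control, a difference of 0.13. Ovol2 BT replicate 2 was the highest array for both, and the groups overlapped. Ifih1 (MDA5), the sensor of long double-stranded RNA, had 80.9 and 122 in Ovol2 BT and 98.4 and 132 in Control (-0.17, SE 0.22, limma adjusted p = 0.797). Zbp1, a sensor of Z-form nucleic acid that can start necroptosis, had 116 and 121 in Ovol2 BT and 104 and 109 in Control, a difference of 0.13 with the groups apart.

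Active enzymes of the oligoadenylate synthetase family make the second messenger that activates RNase L. All 4 tested members of the family, which include synthetase-like ones, had higher values in Ovol2 BT. Their median difference was 0.29, and 0 passed at an adjusted or unadjusted p of 0.05 in limma. Oasl1 had 177 and 172 in Ovol2 BT and 148 and 120 in Control (0.35, SE 0.19, limma adjusted p = 0.567), with the groups apart. Oas3 was also apart, with 73.3 and 78.4 in Ovol2 BT and 66.9 and 57.1 in Control, a difference of 0.24. Oas2 overlapped, with 90.0 and 97.0 in Ovol2 BT and 94.5 and 84.6 in Control. Oas1a, below the filter, had 58.2 and 80.9 in Ovol2 BT and 55.3 and 53.9 in Control. A probe set shared by Oas1a and Oas1g had 69.4 and 76.7 in Ovol2 BT and 76.0 and 55.6 in Control. Unlike the probe set of Oas1a alone, its groups overlapped, and signals of these near-identical paralogs cannot be told apart there.

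The IFIT proteins bind foreign RNA and block its translation. Ifit2 had 108 and 129 in Ovol2 BT and 155 and 161 in Control, a log2 difference of -0.37 (SE 0.18, limma adjusted p = 0.517). Its groups were apart, with Ovol2 BT lower. Ifit3 had 63.2 and 88.8 in Ovol2 BT and 77.3 and 60.6 in Control (0.11, limma adjusted p = 0.848), with overlap. Ifit1, below the filter, had 34.4 and 58.3 in Ovol2 BT and 32.2 and 30.9 in Control. The paired ISRE matches printed above for Ifit1 and Ifit3 stood beside differences of 0.36 and 0.11, and Ifit2, with 0 ISRE matches in its windows, beside -0.37. Neither Ifit2 nor Ifit3 was called, and Ifit1 had no test. Whether matches and differences go together was not tested.

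The IFITM proteins restrict virus entry at membranes, and tetherin (Bst2) holds budding virus at the cell surface. Ifitm3 had 3147 and 3193 in Ovol2 BT and 3110 and 2327 in Control (log2 difference 0.24, SE 0.19, limma adjusted p = 0.686). Ifitm2 had 5987 and 5247 in Ovol2 BT and 5915 and 4712 in Control (0.09, SE 0.17, limma adjusted p = 0.872). Ifitm1 had 1246 and 1263 in Ovol2 BT and 1279 and 1311 in Control (-0.04, SE 0.19, limma adjusted p = 0.945). None of the 3 passed the test, and Control replicate 2 was the lowest array for Ifitm3 and Ifitm2. The other probe sets of Ifitm2 gave 0.16 and 0.20, and that of Ifitm1 gave 0.03. Bst2 had 193 and 229 in Ovol2 BT and 173 and 161 in Control (0.31, SE 0.19, limma adjusted p = 0.613), with the groups apart.

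The 3 GTPases with a probe set of their own were all below the filter. Mx1, a dynamin-like GTPase against influenza-type viruses, had 30.7 and 31.1 in Ovol2 BT and 34.4 and 32.7 in Control. Mx2 had 30.6 and 35.7 in Ovol2 BT and 36.2 and 20.6 in Control. Gbp3, a guanylate-binding protein, had 37.5 and 59.5 in Ovol2 BT and 33.2 and 29.0 in Control. Of these, Gbp3 was higher in both Ovol2 BT arrays, Mx1 was lower in both, and Mx2 overlapped. The probe set naming both Gbp2 and Gbp2b had 55.3 and 70.7 in Ovol2 BT and 42.8 and 49.7 in Control, and the one naming Isg15 and Gm9706 had 58.5 and 48.1 in Ovol2 BT and 49.3 and 38.8 in Control. Signals of the genes in each of these pairs cannot be told apart.

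Usp18 removes the ubiquitin-like ISG15 from its targets and blocks signalling at the type I interferon receptor. It had 73.2 and 178 in Ovol2 BT and 128 and 41.7 in Control (log2 difference 0.53, SE 0.43, limma adjusted p = 0.686). Ordered by level, the arrays of the groups alternated. Without Control replicate 1 the difference was 1.19, and within the arrays numbered 1 it was -0.69.

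Of the other effectors, 8 were tested, of which 6 had higher and 2 lower values in Ovol2 BT (median difference 0.23). Of the 8, Ifi27 alone was called. Rtp4, a regulator of the antiviral response that was first known as a receptor chaperone, had 202 and 604 in Ovol2 BT and 229 and 211 in Control (0.64, SE 0.41, limma adjusted p = 0.618). Rsad2 (viperin), which makes a chain-terminating nucleotide, had 106 and 346 in Ovol2 BT and 127 and 121 in Control (0.59, SE 0.41, limma adjusted p = 0.640). In both genes Ovol2 BT replicate 2 was the high array and Ovol2 BT replicate 1 was the lowest of the 4. Without Ovol2 BT replicate 1, the differences were 1.39 for Rtp4 and 1.37 for Rsad2. Each was below 0 within the arrays numbered 1 (-0.17 and -0.22).

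Xaf1, a promoter of apoptosis, had 52.9 and 133 in Ovol2 BT and 77.4 and 58.3 in Control (log2 difference 0.28, SE 0.31, limma adjusted p = 0.762). Without Ovol2 BT replicate 1 its difference was 0.84. The ADP-ribosyltransferase family member Parp9 had 71.5 and 156 in Ovol2 BT and 107 and 121 in Control (-0.08, SE 0.28, limma adjusted p = 0.927). In both, the Ovol2 BT arrays lay on either side of the Control arrays. Parp14, of the same family, had 76.6 and 105 in Ovol2 BT and 77.7 and 81.2 in Control. The exonuclease Isg20 had 1038 and 810 in Ovol2 BT and 724 and 899 in Control. Ifi35 had 262 and 227 in Ovol2 BT and 298 and 220 in Control. These 3 also overlapped, with differences of 0.15, 0.18 and -0.07.

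Cxcl10, a ligand of the lymphocyte receptor CXCR3, was the member with the lowest difference. It had 54.9 and 56.4 in Ovol2 BT and 131 and 66.7 in Control (log2 difference -0.62, SE 0.24, unadjusted p = 0.0287 and adjusted p = 0.422 in limma). Both Ovol2 BT arrays were below both Control arrays, but Control replicate 1 was high. Without Control replicate 2 the difference was -1.04. Within the arrays numbered 1 it was -1.06, and within those numbered 2 it was -0.19. The related ligand Cxcl9 had 56.0 and 98.7 in Ovol2 BT and 61.3 and 83.9 in Control, with overlap. Cxcl11, below the filter, had 74.8 and 65.6 in Ovol2 BT and 53.4 and 52.4 in Control. The values of the 3 ligands lay in both directions. Neither Cxcl10 nor Cxcl9 was called, and Cxcl11 had no test.

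The immunoproteasome subunits, which shape peptides for antigen presentation, were both within 1.5-fold. Psmb9 had 162 and 169 in Ovol2 BT and 153 and 132 in Control (log2 difference 0.19, SE 0.18, limma adjusted p = 0.721). Psmb8 had 122 and 104 in Ovol2 BT and 119 and 102 in Control, a difference of 0.03 with overlap.

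**Figure D3:**
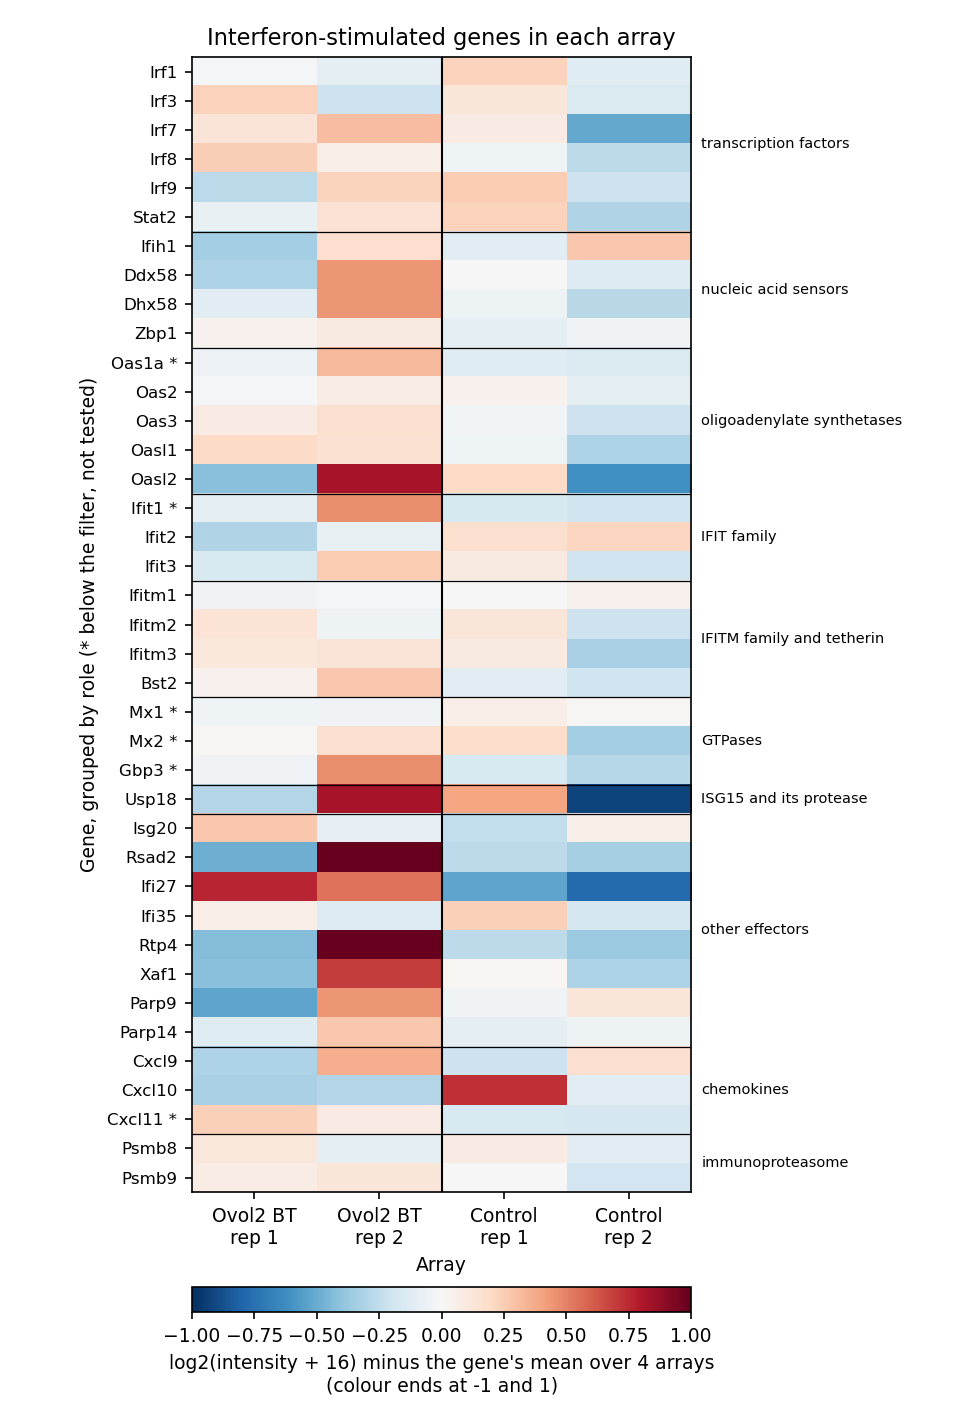
Deviation of log2(intensity + 16) from each gene's mean over the 4 arrays (colour, from -1 to 1), for the 39 members with a probe set of their own, grouped by role, with an asterisk on members below the filter. Ovol2 BT replicate 2 is high for Rsad2, Rtp4, Oasl2, Usp18 and Xaf1, and Control replicate 2 is low for Usp18, Oasl2 and Irf7.

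A larger share of the members than of all genes differed at least 1.5-fold between the arrays of one group, in one direction. Ovol2 BT replicate 2 was at least 1.5-fold above Ovol2 BT replicate 1 for 8 of 33 tested members (24.2%), against 7.3% of all tested genes. The reverse held for 0 members, against 2.36% of all genes. The 8 were Rsad2 (2.95-fold), Rtp4 (2.85-fold), Oasl2 (2.36-fold), Usp18 (2.17-fold), Xaf1 (2.16-fold), Parp9 (1.96-fold), Ddx58 (1.68-fold) and Cxcl9 (1.59-fold). By this ratio Rsad2 ranked 10th and Rtp4 13th of the 14953 genes. Promoter windows were searched for 5 of them: Rsad2 and Ddx58 had an ISRE match, Oasl2, Xaf1 and Cxcl9 had none, and Rtp4, Usp18 and Parp9 were not searched.

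In Control, replicate 1 was at least 1.5-fold above replicate 2 for 4 of 33 members (12.1%), against 2.93% of all genes. The reverse held for 0 members, against 4.58% of all genes. The 4 were Usp18 (2.49-fold), Cxcl10 (1.78-fold), Oasl2 (1.75-fold) and Irf7 (1.51-fold). Oasl2, an oligoadenylate synthetase-like protein with ubiquitin-like domains, had 134 and 338 in Ovol2 BT and 213 and 115 in Control (log2 difference 0.41, SE 0.40, limma adjusted p = 0.732). Usp18 and Oasl2 were the 2 members (6.06%) that passed in both groups, against 0.0736% of all genes. The latter is 11 genes, which include these 2 members. The ratios and their direction were not planned, so these shares describe the arrays and test nothing. By the choice of these ratios, the high array of Usp18 and Oasl2 was replicate 2 in Ovol2 BT and replicate 1 in Control. Arrays of the same number deviated together across genes (r = 0.41), which makes this opposed pattern rarer among all genes. The part of the replicate number or of sex in these values was not tested.

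The other 9 genes with this array pattern were AI506816, Akr1c18, Car5b, Dph6, H2-Ea, Hoxc8, Il1f8, Lrrn4cl and Mybpc2. Of these, AI506816 and H2-Ea were singled out after their values were seen. AI506816 had 23.6 and 913 in Ovol2 BT and 1058 and 10.3 in Control. H2-Ea, a class II histocompatibility gene that mouse haplotypes either express or lack, had 47.1 and 124 in Ovol2 BT and 87.5 and 39.1 in Control. These genes were low in the arrays in which Usp18 and Oasl2 were low, which follows from the shared ratios by which all of them were picked. The part of a strain difference between mice of one group in the member values was not tested.

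**Figure D4:**
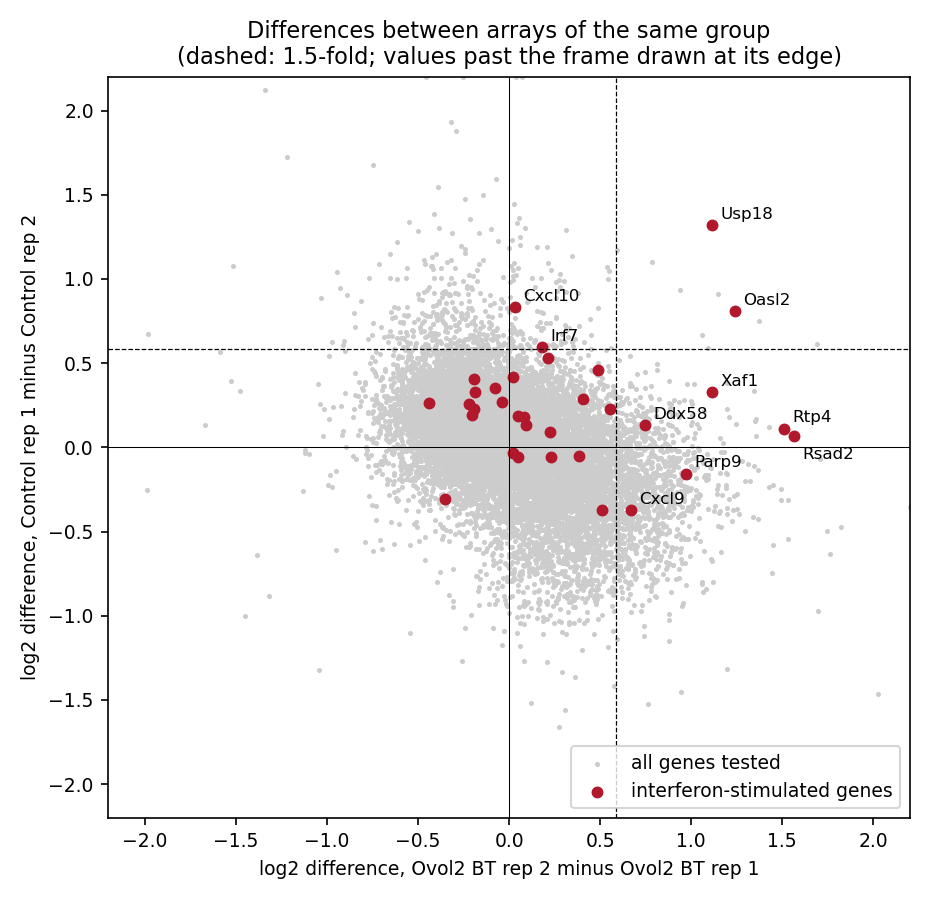
Log2 ratio within Ovol2 BT (replicate 2 over replicate 1, x axis) and within Control (replicate 1 over replicate 2, y axis) for all 14953 tested genes (grey) and the 33 members (red), with dashed lines at 1.5-fold and values past the frame drawn at its edge. Usp18 (2.17-fold and 2.49-fold) and Oasl2 (2.36-fold and 1.75-fold) lie beyond both lines, whereas Rsad2 and Rtp4 are beyond the line for Ovol2 BT alone.

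The rest of the interferon pathway was read from 4 further lists of 129 genes, of which 107 had a probe set of their own and 79 were tested. None was called in limma, against 0.615% of all tested genes called higher and 0.348% lower. At an unadjusted p under 0.05 in limma, 6 were higher (7.59%, against 5.11% of all tested genes). At the same threshold 3 were lower (3.80%, against 5.24%). Their median difference was 0.07. Of the 11 interferon ligands, 3 were tested, all with higher values in Ovol2 BT. Ifnl2, a type III interferon, had 707 and 588 in Ovol2 BT and 496 and 589 in Control, with overlap (0.25, SE 0.22, limma adjusted p = 0.708). Ifnz, interferon zeta, had 176 and 152 in Ovol2 BT and 149 and 139 in Control (0.17, SE 0.18, limma adjusted p = 0.765).

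Of the 13 tested receptors and transducers, 5 had higher and 8 lower values. Ifngr1, the ligand-binding chain of the interferon gamma receptor, had 948 and 1185 in Ovol2 BT and 795 and 708 in Control (log2 difference 0.49, SE 0.22, limma adjusted p = 0.479). The kinase Jak1 had 851 and 1199 in Ovol2 BT and 1150 and 1452 in Control (-0.35, SE 0.24, limma adjusted p = 0.635). Ifngr1 separated the groups and Jak1 did not. Among 17 tested inducers of interferon, 10 had higher and 7 lower values, and the ubiquitin ligase Traf6 was lower in both Ovol2 BT arrays, with 737 and 769 in Ovol2 BT and 1000 and 1054 in Control (-0.44, limma adjusted p = 0.494). Rnaseh2a, the catalytic subunit of RNase H2, was also lower in both, with 724 and 549 in Ovol2 BT and 879 and 787 in Control (-0.39, limma adjusted p = 0.587).

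A wider list of other interferon-stimulated genes had 46 tested genes, 30 with higher and 16 with lower values and a median difference of 0.09. The smallest p values belonged to Ifi27l2a, given above, and Slfn9, a Schlafen family gene. Slfn9 had 84.9 and 95.9 in Ovol2 BT and 156 and 261 in Control (-1.04, SE 0.24, limma adjusted p = 0.113), with the groups apart. In this list 6 of 46 genes (13.0%) were at least 1.5-fold higher in Ovol2 BT replicate 2 than in replicate 1, against 7.3% of all genes. Among them were Dtx3l (2.17-fold), the partner of Parp9, and the GTPase Irgm1 (2.02-fold). The reverse held for 0, against 2.36% of all genes. In Control, replicate 1 was at least 1.5-fold above replicate 2 for 2 genes (4.35%, against 2.93% of all genes). It was as far below for 1 (2.17%, against 4.58%). Dtx3l and Irgm1 had log2 ratios of -0.07 and -0.14 there. The list's median was -0.01 within the arrays numbered 1 and 0.16 within those numbered 2.

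Immune cell markers were read beside the members, since leukocytes express many of these genes. Over 58 immune markers of 9 cell lists, 53 had a probe set and 36 were tested, with 0 called. At an unadjusted p under 0.05 in limma, 5 were higher (13.9%, against 5.11% of all genes) and 0 were lower; 3 of the 5 were macrophage and 2 mast cell genes. Their summed intensity was 32103 and 31360 in Ovol2 BT and 29983 and 31207 in Control. The macrophage list was higher in both Ovol2 BT arrays, with sums of 8056 and 7802 in Ovol2 BT and 6477 and 5928 in Control and 8 of 10 genes higher. Within it C1qc, a complement subunit, differed by 0.61 (limma adjusted p = 0.359) and Cd68 by 0.64 (limma adjusted p = 0.423). T cell sums were 2819 and 2199 in Ovol2 BT and 2858 and 3094 in Control. Most of each sum was Thy1, with 2341 and 1761 in Ovol2 BT and 2424 and 2637 in Control. Cd3e differed by 0.04 with overlap, and the 4 tested T cell genes had a median difference of -0.01. Plasmacytoid dendritic cell sums, on a list that includes the member Bst2, were 7001 and 5577 in Ovol2 BT and 7982 and 6721 in Control. Bst2, with its values given above, was a small part of these sums. The mast cell proteases Mcpt4 and Tpsb2 differed by 0.85 (limma adjusted p = 0.265) and 0.48 (limma adjusted p = 0.423), and mast cell sums were 8856 and 10579 in Ovol2 BT and 7892 and 10540 in Control. They were the only 2 of the 5 tested mast cell genes to be higher. The other 3 differed in the opposite direction, and the list's median was -0.11. Between the Ovol2 BT arrays, the macrophage sum was lower in replicate 2 but the list's mean log2 level was higher (9.10 in replicate 1 and 9.23 in replicate 2), and 2 of its 10 genes were at least 1.5-fold higher in replicate 2. Over all 36 tested immune markers, 3 were at least 1.5-fold higher in replicate 2 (8.33%, against 7.3% of all genes). None was as far lower, against 2.36% of all genes. In Control, 1 was at least 1.5-fold higher in replicate 1 than in replicate 2 (2.78%, against 2.93% of all genes). As far lower in replicate 1 were 5 (13.9%, against 4.58% of all genes). The part of immune cells in the member values was not tested. Keratinocyte sums were 37751 and 33294 in Ovol2 BT and 54240 and 46013 in Control. Of the 7 tested keratinocyte markers, 3 (Krt15, Krt5 and Krt14) were called lower, against 0.348% of all tested genes. The part of this shift in the member values was not tested.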

How the data were processed

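The authors deposited intensities on a linear scale for each probe set. The submitters' processing notes name PLIER 2.0 and Affymetrix Expression Console 1.1.1, and the normalization within PLIER is not given in the sources used here. They were used without further normalization. Of 35557 probe sets, 21789 name 1 gene in the platform annotation, 1621 several and 12147 none. For each gene the brightest of its own probe sets was taken. Log2(intensity + 16) was fitted with limma 3.58.1 in R 4.3.3 (group term, eBayes with a variance trend, 2 arrays per group, two-sided), after leaving out the 25% of genes with the lowest mean. A gene was called at a Benjamini-Hochberg adjusted p under 0.05 over 14953 genes. The fit was tested on simulated data. An exact permutation of 2 against 2 arrays cannot give a two-sided p below 0.333, so none is given.

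The members and the gene lists were chosen with earlier results of these data known. Values are given for every member, with SE and adjusted p in full for called members, the smallest p of each role, the 5 highest and 5 lowest differences and the IFITM family (17 members). Outside the members, genes were to be named as every called gene of a list, or otherwise the 2 smallest p. For the immune lists only macrophage, mast cell and T cell genes are printed. Fuller statistics for Irf8, Oasl2, Xaf1 and Ifit3, and the naming of Ifi27l2b, Dtx3l and Irgm1, were chosen after their values were seen. Nothing in the labels states that arrays came from separate litters, or that the same number marks a shared one, so p-values measure the spread between these arrays. Alternatives were other pseudocounts, filters, scalings, variance trends, probe set rules and thresholds, the replicate number as a block, and each array left out. The values within arrays of 1 number were added after seeing the data. The ratios between arrays of 1 group, and their direction, were not among the planned results. Promoter windows came from RefSeq (GRCm38.p6). Tables were made in Python 3.11.15 with pandas 2.3.3, and plots with matplotlib 3.10.9.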

Additional observations from a re-analysis of the deposited data

How the results depend on the processing

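Ifi27 kept its direction in all 14 alternatives that gave it a value (1.18 to 1.43) and its call in 12 (adjusted p from 0.000588 to 0.0578, limma). With the replicate number as a block, 671 genes were called in place of 144, the call of Ifi27 held (adjusted p = 0.000588), and 4 genes of the other pathway lists were called in place of 0: Lgals3bp (1.06) and Ifi27l2a (0.71) higher, Slfn9 (-1.04) and Nt5c3 (-0.65) lower. Across genes, arrays of the same number deviated from their group means together (r = 0.41), but with 2 pairs this does not show that the numbers pair the arrays, and the cause was not tested. Leaving out each array in turn, where the remaining array of its group is assumed to vary like those of the other group, gave 204 to 351 calls. Of the members, 1 to 3 were then called: Rsad2, Rtp4 and Xaf1 without Ovol2 BT replicate 1, Ifi27 without Ovol2 BT replicate 2, Ifi27 and Usp18 without Control replicate 1, and Cxcl10 without Control replicate 2. Of the other pathway lists, 0 to 3 genes were called, the 3 without Control replicate 1. In the fits without a Control array, the variance of each gene came only from the trend over all genes. Calls from those fits, among them Usp18 and Cxcl10, therefore ignore the gene's own spread. The members' median difference of 0.13 ranged from -0.010 (without Ovol2 BT replicate 2) to 0.25 (without Control replicate 1). It was -0.066 within the arrays numbered 1 and 0.33 within those numbered 2, beside -0.043 and -0.025 over all tested genes. Dim probe sets limit what can be said of the 6 untested members, and the values carry no detection calls.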
